A study of Homo sapiens with 12 samples.

Results

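The RB pocket proteins, genes of the E2F family and MYBL2 were followed in EndoC-βH3 cells with and without induced senescence. The 10 genes are RB1, RBL1 and RBL2, which encode the pocket proteins, the transcription factor genes E2F1, E2F2, E2F3, E2F4, E2F7 and E2F8, and MYBL2. They were chosen by name, as the pocket proteins that SV40 large T antigen targets, genes of the E2F family, and MYBL2. Each matched 1 of the 35337 genes in the deposited expression table. EndoC-βH3 is an established human beta-cell line made from fetal pancreas, here of genotype WT by the labels, in which hTERT and large T antigen keep the cells dividing. It carries CreER, a recombinase that 4-hydroxytamoxifen (4-OHT) switches on to excise both transgenes. The senescent group was labelled "Senescence induction" and had 3 weeks of 4-OHT, while the non-senescent group was labelled "control". Excision, 4-OHT itself and the time in culture therefore cannot be told apart. The model is a single line, and the labels do not state whether samples came from separate cultures, so p-values measure the spread between these samples, which may be technical. The transcript of large T antigen was not analysed here.

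Poly(A) RNA was read from the 3′ end of transcripts by CEL-seq2 in 12 libraries, 6 per group. The titles carry a letter, A or B, taken as the batch, with 2 libraries per group in batch A and 4 per group in batch B. Batch A held 8873569 to 17106776 reads per library and batch B held 4672924 to 7063264. The 10 beta-cell markers together took 74800 to 93000 ppm of the reads in non-senescent libraries and 87300 to 117000 in senescent ones, with all 10 detected. Most of this was CHGA, which other endocrine cells also express (61800 to 104000 ppm over both groups). INS, the defining marker, took 1610 to 4830 ppm in non-senescent and 6590 to 23500 ppm in senescent libraries, and rose by 2.23 ± 0.11 on the log2 scale, as did IAPP by 1.87 ± 0.07 and PDX1 by 0.59 (limma). The other 7 beta-cell markers were not called, with log2 fold changes from -0.37 (NKX6-1) to 0.34 (ISL1). The median over all 10 was 0.08. Exocrine markers took 29.2 to 62.1 ppm over both groups. The 10 mesenchymal, endothelial and immune markers took at most 27 ppm, with PDGFRB and VWF at 0 reads in every library. The 6 alpha- and delta-cell markers, among them TTR, which beta cells also express, took 30800 to 57900 ppm over both groups. SST, the defining delta-cell hormone, took 23200 to 40400 ppm in non-senescent and 15000 to 18900 ppm in senescent libraries, so in non-senescent libraries it exceeded INS. SST, GCG and HHEX were called lower and TTR higher, as were KRT19 (2.55 times lower) and CPA1 (4.75 times higher) of the exocrine and PTPRC (lower) of the immune markers. The part of these moves in the results was not tested. Since the libraries are bulk, fewer cells that transcribe a gene and less of its RNA per cell cannot be told apart.

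Pocket proteins bind E2F transcription factors and recruit repressors to the promoters that E2Fs occupy. Cyclin-dependent kinases phosphorylate pocket proteins to release E2F when a cell enters the cycle, and large T antigen breaks the same contact through its LxCxE motif. E2F1, E2F2 and E2F3 are regarded as the activator E2Fs, E2F4 as the main partner of RBL1 and RBL2 in quiescent cells, and E2F7 and E2F8 as atypical repressors that act without a DP partner. RBL1 or RBL2 with E2F4, DP and the MuvB core form the DREAM complex, which represses cell-cycle genes, and in dividing cells MYBL2 (B-Myb) and then FOXM1 bind MuvB to activate mitotic genes.

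Levels are given as normalised read counts, which are reads divided by a size factor for each library, and folds are on the scale of log2(normalised read count + 1). A gene was called higher or lower in senescent cells at a limma adjusted p under 0.1, Benjamini-Hochberg over 13847 genes with a mean of at least 5, and a fold change over 1.5. All 10 genes passed this filter. Of these, 6 fell in senescent cells (RBL1, E2F1, E2F2, E2F7, E2F8 and MYBL2), none was called higher, and RB1, RBL2, E2F3 and E2F4 were not called. Over all genes tested, 11.8% were called lower and 11.6% were called higher. No member was higher at an unadjusted p under 0.05 either, and edgeR and DESeq2 on the recovered reads called the same 6 genes and 0 genes higher. The median log2 fold change was -1.51 over the 10 members and 0.01 over all genes tested.

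**Figure D1:**
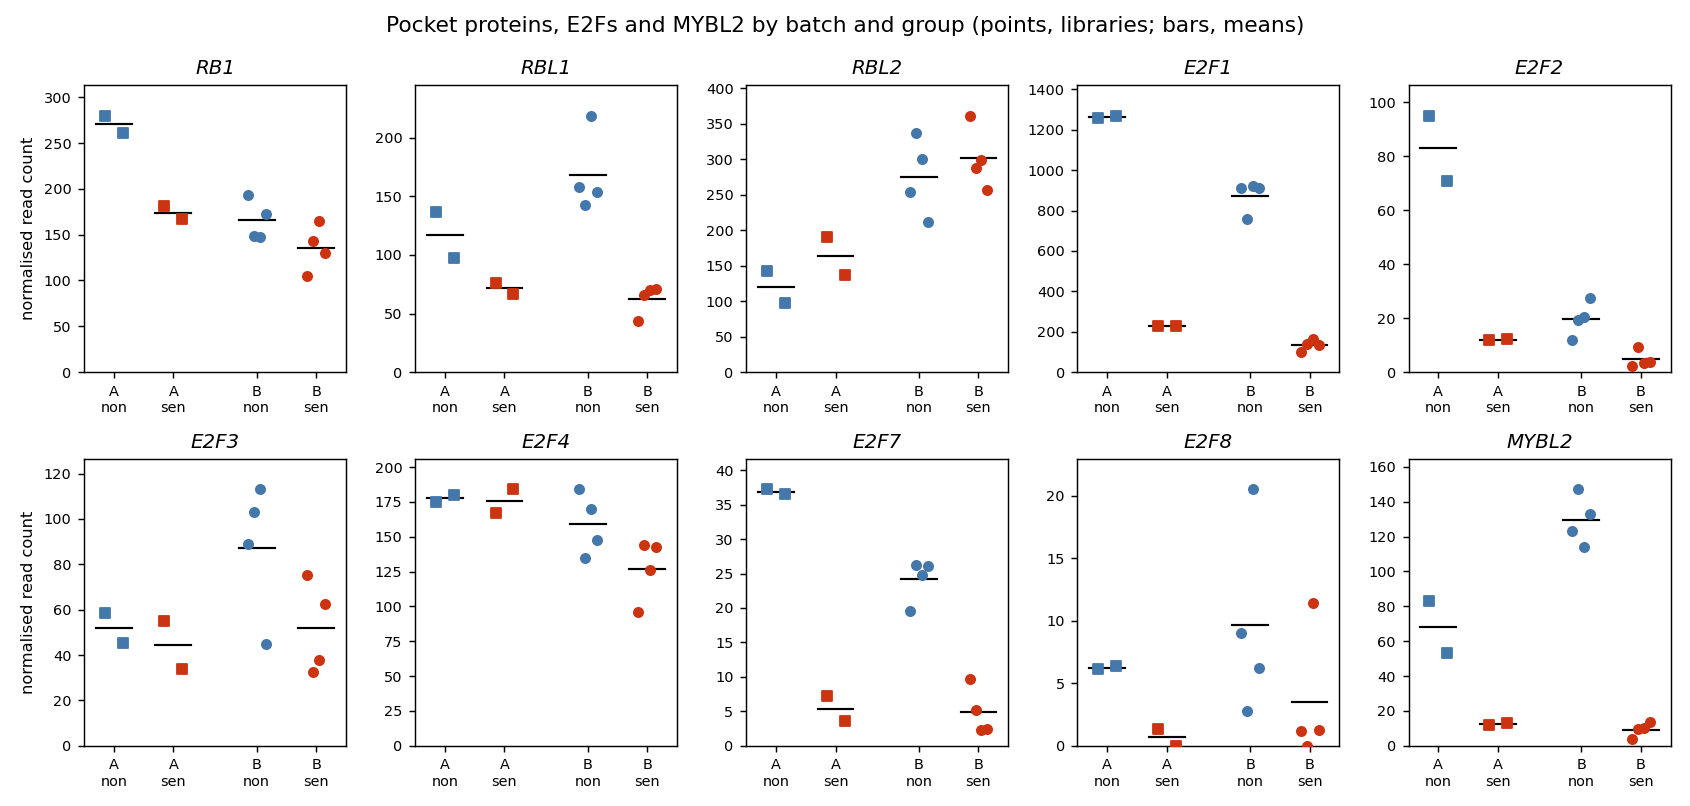
Normalised read count (y axis, linear from 0, a scale of its own for each gene) of the 10 genes in each library, by batch (A squares, B circles) and group (blue non-senescent, red senescent), with a bar at the mean. In both batches the groups stand apart for RBL1, E2F1, E2F2, E2F7 and MYBL2, whereas RBL2, E2F3 and E2F4 overlap in both.

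Among the pocket proteins, RBL1 transcripts fell in senescent cells, while RB1 and RBL2 stayed under the limits of the call. RBL1 encodes p107, the pocket protein most abundant in cycling cells, and its gene lies at chr20:36996349-37095997 on the minus strand (GRCh38). In batch A, RBL1 stood at 137 and 97.8 normalised read counts in non-senescent libraries and at 76.3 and 67 in senescent ones. In batch B, RBL1 stood at 158, 143, 219 and 154 in non-senescent libraries and at 43.6, 66.1, 69.8 and 71 in senescent ones. Every senescent RBL1 value lay under every non-senescent one. The RBL1 mean went from 151.6 ± 39.5 to 65.7 ± 11.4 (SD, n = 6 each). This is a log2 fold change of -1.18 ± 0.18 (SE), or 2.26 times lower, at a limma adjusted p of 4.82e-05.

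RB1 encodes the retinoblastoma protein and lies at chr13:48303744-48599436 on the plus strand. RB1 counts were 280 and 261 in non-senescent libraries of batch A against 181 and 167 in senescent ones. In batch B they were 193, 149, 148 and 173 against 105, 143, 165 and 130, so the groups were separate in batch A and overlapped in batch B. The RB1 difference was -0.41 ± 0.12 on the log2 scale (95% interval -0.67 to -0.15). Its adjusted p of 0.0149 (limma) was past the limit and its size was not, and within batch A alone, where the difference was -0.63, RB1 was called lower.

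RBL2 encodes p130, the pocket protein known for its accumulation in quiescent cells, and lies at chr16:53433977-53491648 on the plus strand. RBL2 stood at 142 and 97.8 in non-senescent libraries of batch A and at 190 and 136 in senescent ones. In batch B it stood at 253, 336, 300 and 211 against 361, 288, 298 and 257. The groups overlapped in both batches, and the difference was 0.24 ± 0.14 (log2, 95% interval -0.05 to 0.54, limma adjusted p = 0.188). The last stretch of RBL2, chr16:53491040-53491648, overlaps AKTIP on the opposite strand. AKTIP was called higher, by 0.60 ± 0.14 on the log2 scale (limma adjusted p = 0.0031). Whether reads were counted by strand is not given in the sources used here, so the reads of RBL2 and AKTIP may not be separate and the RBL2 value is uncertain.

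The activator E2Fs did not move alike in size. E2F1 fell 6.21 times and E2F2 4.55 times in senescent cells, whereas the E2F3 difference passed only the limit on p. E2F1 lies at chr20:33675477-33686385 on the minus strand and had the highest counts of the 10 genes in non-senescent cells. In batch A it stood at 1260 and 1270 in non-senescent libraries and at 228 and 227 in senescent ones. In batch B, E2F1 stood at 910, 756, 921 and 911 against 99.4, 140, 164 and 132. The lowest non-senescent E2F1 value, 756, was thus well above the highest senescent one, 228. The E2F1 mean went from 1005 ± 211 to 164.9 ± 52.6 (SD, n = 6 each), a log2 fold change of -2.64 ± 0.11 (limma adjusted p = 7.07e-12).

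E2F2, at chr1:23506438-23531233 on the minus strand, was scarcer and differed in level between batches. In batch A, E2F2 counts were 95 and 70.7 in non-senescent libraries and 11.7 and 12.1 in senescent ones. In batch B, they were 12, 19.3, 20.5 and 27.3 against 2.42, 9.45, 3.43 and 3.74. Over both batches together the E2F2 groups just met, since 12.1 in a senescent library of batch A lay above 12 in a non-senescent library of batch B, but within each batch they did not overlap. The E2F2 fold depended on the pseudocount, at -1.48 with 8 in place of 1. With both batches the E2F2 log2 fold change was -2.19 ± 0.31 (limma adjusted p = 2.99e-05), from -2.69 in A and -1.94 in B.

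E2F3, at chr6:20401879-20493714 on the plus strand, overlapped between groups in both batches. Its counts were 58.4 and 45.3 against 55.2 and 33.8 in batch A, non-senescent first. In batch B they were 88.8, 103, 113 and 44.7 against 75.1, 32.5, 37.8 and 62.3. The E2F3 difference was -0.57 ± 0.25 (log2, 95% interval -1.11 to -0.04, limma adjusted p = 0.0862), which is a fold just under the limit, and 5 of the 12 fits that left out 1 library called E2F3 lower. These 5 fits were those without non-senescent A2 or B4, or without senescent A1, B1 or B4. E2F3P2, a processed pseudogene of E2F3 looked up after its values were seen, ran from 29.6 to 42.2 in batch A and from 271 to 396 in batch B. Its difference between groups was 0.04 ± 0.12 (limma adjusted p = 0.821). Salmon divides reads that fit both between such copies, so the E2F3 value is uncertain.

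Upstream sequences are shown for the members whose window held an E2F motif, since the genes of the activator E2Fs and of RBL1 are themselves known E2F targets. Each is the 100 bases before the transcription start (RefSeq, GRCh38.p14), written 5′ to 3′ on the strand of the gene, with the motif in capitals.
RBL1, chr20:37095998-37096097, minus strand: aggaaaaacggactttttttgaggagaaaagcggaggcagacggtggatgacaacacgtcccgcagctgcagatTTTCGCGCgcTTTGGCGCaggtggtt
E2F1, chr20:33686386-33686485, minus strand: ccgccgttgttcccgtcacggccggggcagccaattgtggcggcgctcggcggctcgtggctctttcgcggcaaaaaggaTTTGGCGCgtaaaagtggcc
E2F2, chr1:23531234-23531333, minus strand: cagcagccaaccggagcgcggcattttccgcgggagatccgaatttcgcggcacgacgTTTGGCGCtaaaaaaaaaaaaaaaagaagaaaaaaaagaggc
E2F3, chr6:20401779-20401878, plus strand: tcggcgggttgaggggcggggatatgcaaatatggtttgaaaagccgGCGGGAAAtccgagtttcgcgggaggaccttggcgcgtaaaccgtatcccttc

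RBL1 held a pair of motifs, TTTCGCGC starting 26 bases and TTTGGCGC starting 16 bases before the start. E2F1 and E2F2 each held TTTGGCGC, starting 20 and 42 bases before it. E2F3 held TTTCCCGC on the opposite strand, so its capitals read GCGGGAAA, starting 53 bases before the start. Of these 4 genes, RBL1, E2F1 and E2F2 were called lower and E2F3 was not. Among members whose window held no E2F motif, E2F7 and MYBL2 were called lower, and RBL2 and E2F4 were not.

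**Figure D2:**
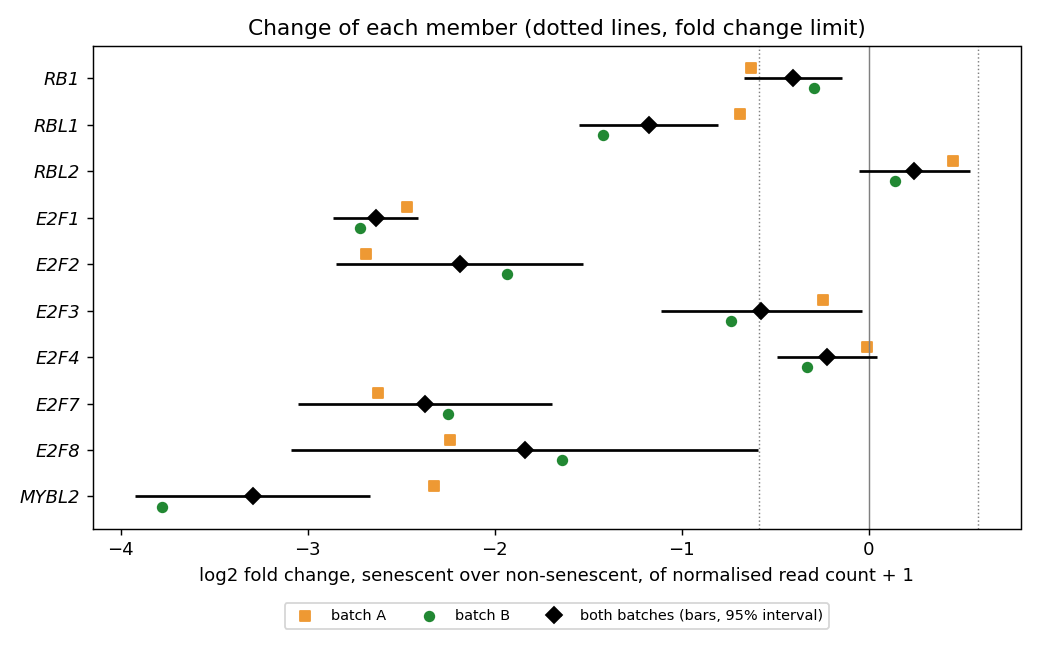
Log2 fold change of each gene (x axis, senescent over non-senescent, of normalised read count + 1), with both batches (black diamonds, bars are 95% intervals), batch A alone (orange squares) and batch B alone (green circles). The intervals of the 6 genes called lower, and those of RB1 and E2F3, lie wholly under 0, and RBL2 is the only gene with its point above 0.

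E2F4, the E2F of the DREAM complex, was not called, and its counts overlapped between groups in both batches. The gene lies at chr16:67192155-67198918 on the plus strand. In batch A, E2F4 stood at 175 and 180 in non-senescent libraries and at 167 and 184 in senescent ones. In batch B it stood at 184, 135, 170 and 148 against 95.7, 144, 126 and 143. The E2F4 difference was -0.22 ± 0.13 (log2, limma adjusted p = 0.18), and its 95% interval of -0.49 to 0.04 lay within the fold limit.

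Both atypical E2Fs fell. E2F7, at chr12:77021248-77065569 on the minus strand, stood at 37.2 and 36.6 in non-senescent libraries of batch A and at 7.18 and 3.62 in senescent ones. In batch B, E2F7 stood at 19.6, 26.2, 24.8 and 26.1 against 9.69, 5.25, 2.29 and 2.49, so every senescent value lay under every non-senescent one. The E2F7 log2 fold change was -2.37 ± 0.32, or 5.18 times lower (limma adjusted p = 1.66e-05), and -1.48 with a pseudocount of 8.

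E2F8, at chr11:19224063-19241620 on the minus strand, was the scarcest of the 10 genes and lies opposite CSRP3-AS1, a long non-coding RNA gene that was not analysed here. In batch A it had 11 and 8 reads in non-senescent libraries and 3 and 0 in senescent ones. In batch B, E2F8 had 6, 2, 14 and 5 reads against 1, 0, 10 and 1, and the groups overlapped there. Replicate B3 was the highest E2F8 library of both groups, at 20.5 normalised read counts among non-senescent and 11.4 among senescent libraries. The E2F8 log2 fold change was -1.84 ± 0.59 (limma adjusted p = 0.0204). In batch B alone it was -1.64, which was not past the limit (limma adjusted p = 0.144). Without either B3 library the mean E2F8 count dropped under the minimum for testing. Without both and with no such minimum, a fit chosen after seeing the data, the groups did not overlap in either batch and E2F8 was called lower at -2.05 (limma adjusted p = 0.00424). In 5 of the 6 senescent libraries E2F8 had at most 3 reads, the number that a count of 0 would still allow.

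MYBL2, with both batches fitted together, had the largest change of the 10 genes, to counts 9.80 times lower in senescent cells. In batch A alone its log2 fold change of -2.33 was smaller than those of E2F2 (-2.69), E2F7 (-2.62) and E2F1 (-2.47), while in batch B it was the largest at -3.78. It lies at chr20:43667019-43716495 on the plus strand. In batch A, MYBL2 stood at 82.8 and 53.2 in non-senescent libraries and at 11.7 and 13.3 in senescent ones. In batch B it stood at 123, 147, 114 and 133 against 3.64, 9.45, 10.3 and 13.7. Those senescent values of batch B rest on 3, 9, 9 and 11 reads, so the size of the MYBL2 fold there is uncertain. The lowest non-senescent value, 53.2, lay far above the highest senescent one, 13.7. The MYBL2 mean went from 109 ± 34.8 to 10.3 ± 3.67 (SD, n = 6 each), a log2 fold change of -3.29 ± 0.30 (limma adjusted p = 1.41e-07). Of the genes tested, 0.101% had a fold change at or under that of MYBL2.

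The groups were separate in each batch taken by itself for 5 members, RBL1, E2F1, E2F2, E2F7 and MYBL2, with the lower values in senescent cells each time. Over all genes tested, 11.9% met this rule with lower values in senescent cells and 11.9% with higher values. The change of no member differed between batches past an adjusted p of 0.1 (limma interaction), against 4.21% of all genes tested, and 2 members did so at an unadjusted p under 0.05. These were MYBL2, with log2 fold changes of -2.33 in A and -3.78 in B (adjusted p = 0.196), and RBL1, with -0.69 and -1.42 (adjusted p = 0.308).

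Within a library, 3 pairs of members were compared to ask whether transcripts of related function moved apart. The measure was the difference of the log2 values of both genes, and since 3′ reads are not scaled to length and priming may differ between genes, only its shift between groups was read. RBL2 minus RBL1 was 0.47 ± 0.45 in non-senescent libraries and 1.89 ± 0.70 in senescent ones (SD, n = 6 each), a shift of 1.42. RBL1 was called lower, and RBL2, whose value is uncertain, was not called. In each batch all senescent values of this pair lay above all non-senescent ones, with shifts of 1.14 in A and 1.56 in B. E2F4 minus E2F1 went from -2.58 ± 0.22 to -0.17 ± 0.23 (SD, n = 6 each), a shift of 2.41. For both pairs the two-sided exact permutation test within batch gave p = 0.00476, the smallest that its 420 arrangements allow (adjusted p = 0.00714 over the 3 pairs). The shift of a pair equals the log2 fold change of 1 gene minus that of the other. RBL1 and E2F1 had been called lower, and RBL2 and E2F4 had not been called. Both tests thus restate the falls of RBL1 and E2F1 and add no separate evidence. RBL2 minus RB1 shifted by 0.65, from 0.08 ± 1.05 to 0.73 ± 0.74, with an adjusted p of 0.0476 (same exact permutation test, n = 6 each). The RBL2 minus RB1 groups overlapped in batch B, where the shift was 0.43 and was not past the limit (exact permutation adjusted p = 0.286), so less weight can be put on it.

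**Figure D3:**
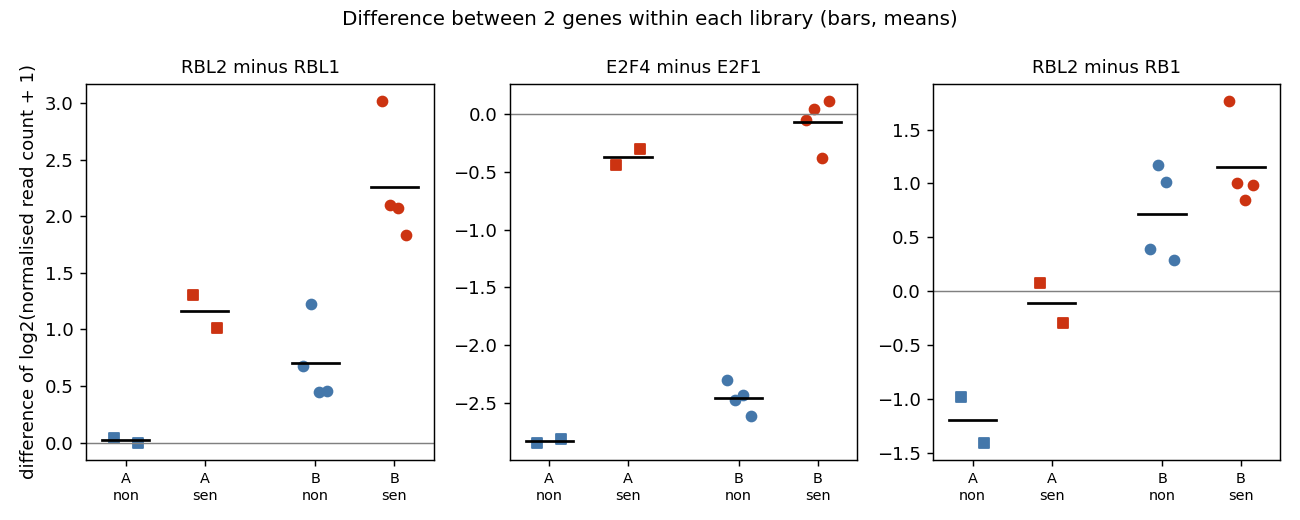
Difference of log2(normalised read count + 1) between both genes of a pair (y axis) in each library, by batch (A squares, B circles) and group (blue non-senescent, red senescent), with a bar at the mean. The senescent libraries of E2F4 minus E2F1 lie between -0.44 and 0.12, all above the non-senescent ones, which lie between -2.85 and -2.30.

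The other genes of the pathway were read from 6 lists. Over all genes tested, 11.8% were called lower and 11.6% higher, and no list was tested as a set. Among the remaining E2F and DP genes, 1 of 4 tested was called. TFDP1, the main DP partner that E2Fs need to bind DNA, fell by 0.65 ± 0.11 on the log2 scale (limma adjusted p = 1.81e-04). E2F5, a repressor E2F like E2F4, differed by 0.13 ± 0.15 and E2F6, which represses without a pocket protein, by -0.27 ± 0.15. TFDP2 differed by -0.31 ± 0.10, under the fold limit, and TFDP3 was not tested.

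Of the 8 genes tested in the list of DREAM, MuvB and MYB-family genes, 4 fell by limma and 5 by edgeR and by DESeq2. None of these tools called any higher. LIN9 was the gene that edgeR (-0.65) and DESeq2 (-0.64) called lower and limma did not. MYBL1 and FOXM1, which like MYBL2 are transcriptional activators, had log2 fold changes of -2.87 ± 0.33 and -2.53 ± 0.16. MYB, the third gene of that family, fell by 1.03 ± 0.37, with few reads. MYB was not called in batch B alone (limma adjusted p = 0.121) or without the batch term (0.192). In the MuvB core, LIN54, the subunit that binds DNA, fell by 0.99 ± 0.17. LIN9 (-0.60 ± 0.28), LIN52 (-0.28 ± 0.07), LIN37 (0.19 ± 0.73) and the histone-binding RBBP4 (-0.56 ± 0.07) were not called by limma. LIN37 changed sign between batches at low counts, so no direction is given for it.

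Of the 14 genes for corepressors that pocket proteins recruit, 3 were called lower and 1 higher, beside 11.8% and 11.6% over all genes tested. Their median log2 fold change was -0.11. RBBP8, also a DNA-repair factor, fell by 1.48 ± 0.15, the histone H3 lysine methyltransferase SUV39H1 fell by 1.32 ± 0.17, and the maintenance DNA methyltransferase DNMT1 fell by 0.97 ± 0.06. KDM5A, a histone demethylase first found as an RB binder, rose by 0.72 ± 0.13 (limma adjusted p = 3.43e-04). By batch, KDM5A differed by 0.24 ± 0.18 (A) against 0.96 ± 0.13 (B), and it was not called in batch A alone (limma adjusted p = 0.148) or without the batch term (0.216).

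Among the kinases that act on pocket proteins and their regulators, 16 of 18 were tested, of which 8 fell and 2 rose. CDK2 and its partner cyclin E2 (CCNE2) fell, with log2 fold changes of -2.37 ± 0.22 and -2.06 ± 0.19. CDKN2D (-1.38 ± 0.08) and CDKN2C (-0.66 ± 0.08), which encode inhibitors of CDK4 and CDK6, fell too, as did the phosphatase gene PPP1CA (-0.68 ± 0.10). The genes that fell were thus not kinases and cyclins alone. CDKN1A, which encodes the CDK inhibitor p21 and is a p53 target, rose by 3.92 ± 0.35, from 45.1 ± 20.2 to 980.6 ± 661.1 normalised read counts (SD, n = 6 each). CDK6, a kinase that starts the phosphorylation of RB, rose by 1.06 ± 0.30 from a low level (means of 11.1 and 25.3 normalised read counts). For CDK6 the batches gave 0.42 ± 0.50 (A) against 1.38 ± 0.35 (B). CDK6 was not called in batch A alone (limma adjusted p = 0.331) and was not tested at a minimum mean of 20. The CDKN1A change differed between batches, at 2.18 ± 0.32 in A and 4.78 ± 0.23 in B (limma interaction adjusted p = 0.00191).

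All 30 of 30 G1/S genes known as E2F targets fell, with a median log2 fold change of -1.98. CCNE1 and CCNE2 stand in this list and also among the 8 genes that fell in the list of kinases and regulators. The largest changes were those of CDC45, a part of the replicative helicase, at -3.16 ± 0.27, CDK1 at -2.97 ± 0.10 and thymidine kinase TK1 at -2.88 ± 0.15. CDK1 was listed here although its kinase acts in mitosis. All 30 of 30 G2/M genes known as targets of MYBL2, FOXM1 and MuvB fell too, with a median of -2.65. These were led by the checkpoint kinase BUB1 at -3.57 ± 0.51, the ubiquitin-conjugating enzyme UBE2C at -3.27 ± 0.12 and AURKB at -3.11 ± 0.11. No gene of these 2 lists was called higher by limma, edgeR or DESeq2. Over all genes tested, 11.8% were called lower. Both lists were drawn up with earlier results of these data known, so their counts were open to selection and are given as descriptions.

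**Figure D4:**
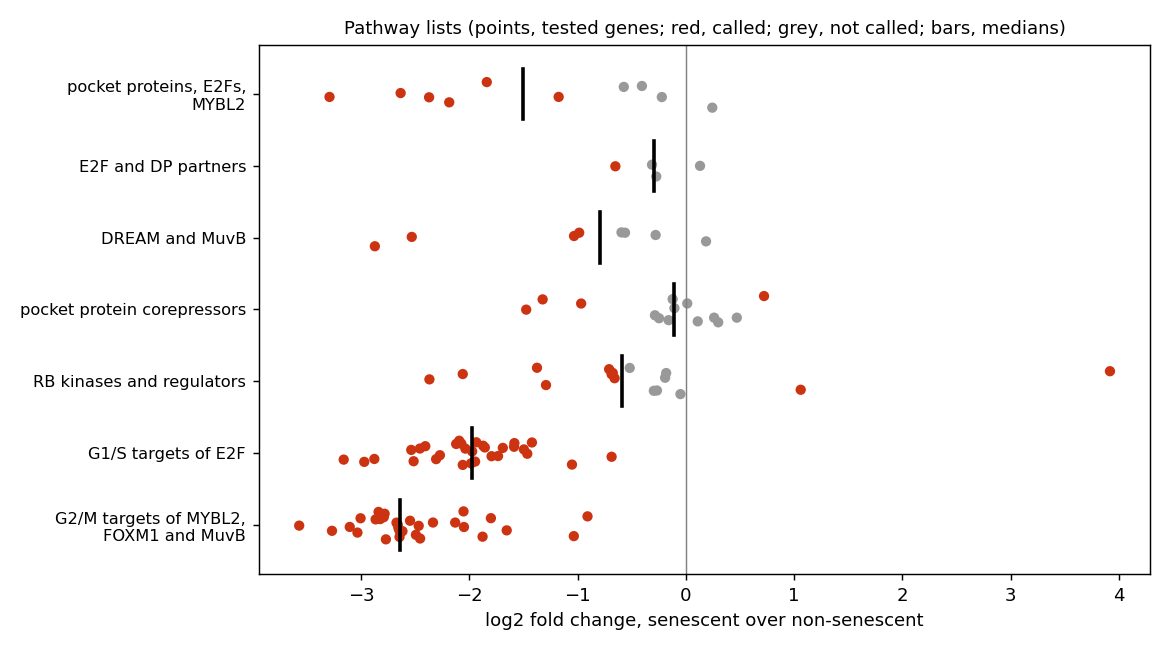
Log2 fold change (x axis, senescent over non-senescent) of every tested gene of the 10 members and of the 6 pathway lists (rows), with called genes in red, genes not called in grey, and a bar at the median of each list. Both target lists lie wholly under 0, with medians of -1.98 and -2.65, while the corepressors spread around a median of -0.11.

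Promoter motifs were counted on both strands in windows from 250 bases before to 50 after the RefSeq start nearest the gene's annotated start. An E2F motif was TTTGGCGC, TTTCGCGC or TTTCCCGC, and a CHR motif, the element that LIN54 reads in DREAM and MuvB targets, was TTTGAA or TTCGAA. In the members, no E2F match overlapped a CHR match. Of all 16415 genes with a window, 3.64% held an E2F motif and 14.2% a CHR motif. Of the 8 members with a window, 4 held an E2F motif and 2 a CHR motif. The CHR motifs were in E2F3, 65 bases before the start, and in RBL2, 24 bases after it. The windows of E2F4, E2F7 and MYBL2 held none of these words. Only exact words were searched, so a window without a match may still hold an E2F site of another sequence. The start used lay 95 bases from the annotated gene start for MYBL2 and 494 bases for RBL2. Of the G1/S genes, 13 of 23 windows (56.5%) held an E2F motif and 3 a CHR motif. Of the G2/M genes, 0 of 20 held an E2F motif and 13 (65.0%) held a CHR motif. Such lists were drawn up from known target genes, so these shares describe the lists and were not tested.

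The genes with the pattern most like that of MYBL2 over the 12 libraries, after centring within batch and among 11674 genes with a mean of at least 20, were XRCC6 (Pearson r = 0.991), PSAT1 (0.989) and PHGDH (0.987). XRCC6 encodes a subunit of the Ku DNA-end binding complex, and PSAT1 and PHGDH encode enzymes of serine synthesis. Their log2 fold changes were -0.37 ± 0.07 for XRCC6, -2.04 ± 0.19 for PSAT1 and -1.68 ± 0.14 for PHGDH, so a like pattern went with changes of unlike size. These correlations are over libraries that share the contrast between groups and are given as descriptions.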

How the data were processed

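CEL-seq2 was used to measure poly(A) RNA in 6 non-senescent and 6 senescent samples of EndoC-βH3 cells. The labels gave the group, the batch letter and the replicate name of each. Per the paper's methods and the submitters' processing notes, the authors used Cutadapt for trimming, Salmon 0.13.1 with GRCh38 for quantification and DESeq2 for normalisation. The annotation, strand setting and handling of molecular identifiers are not given in the sources used here. The deposited values are a signal, reads per gene divided by 1 size factor per sample, and 100% of the 196021 non-zero values were whole reads within 0.01 reads. Floors (3 reads) cover counting error only, and 95% intervals of fold changes are limma's and cover the spread between libraries. The 6 columns of the authors' comparison (mean level, log2 fold change, its error, a test statistic, p-value and adjusted p-value) were not used.

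The main test was limma 3.58.1 (R 4.3.3) with intensity trend and terms for batch and group on log2(normalised read count + 1), for 13847 genes with a mean of at least 5. Calls needed a change of over 1.5-fold and an adjusted p (Benjamini-Hochberg) under 0.1. The log2 scale with this pseudocount understates changes of low genes. Pairs were tested by exact permutation within batch. Alternatives were edgeR 4.0.16 and DESeq2 1.42.0 on the recovered reads, other scalings, filters and pseudocounts, single batches, and libraries left out. The limma step was tested on simulated data. Positions came from GENCODE v44, and promoter windows, found for 8 of the 10 members, from RefSeq.

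Members, lists and the rule for named genes were chosen with earlier results of these data known. All members were named, and of each list its 3 called genes of largest change, those called against its majority, and every gene of the E2F and DP and the DREAM and MuvB lists. CDKN2C, CDKN2D and PPP1CA were named beyond this rule, after their values were seen. Genes of like pattern were the 3 with the highest Pearson r to MYBL2. The same was computed for RBL2 and is not reported here.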

Additional observations from a re-analysis of the deposited data

Results flagged for a closer look

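A single library stood apart from the other 5 of its group in 3 of the 20 combinations of member and group (Dixon's test, 95% level). Chance alone gives about 1 of 20 where all 6 values follow 1 normal distribution. The values were pooled over both batches, which differ in level for some members, so that rate may not hold here. RBL1 was at 43.6 normalised read counts in senescent replicate B1, with the next senescent library at 66.1. E2F8 was at 20.5 in non-senescent replicate B3, with the next at 9.03. E2F8 was also at 11.4 in senescent replicate B3, with the next at 1.35. Both B3 libraries thus carried the most E2F8 reads of their group in proportion to depth, at 14 and 10 reads, and without both of them E2F8 had too low a mean to be tested while the other 5 members were still called lower. With no minimum mean and without both, E2F8 was called lower too (-2.05). Both alternatives were chosen after seeing the data.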

How the results depend on the processing

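RBL1, E2F1, E2F2 and MYBL2 were called lower under all 15 alternatives to the reported fit, as was E2F7 under the 14 that tested it (a mean of at least 20 removed it and E2F8), and all 5 were called in every fit that left out 1 library. Scaling libraries to the same total moved the median of all genes to -0.09, against 0.01 as deposited, took the higher share of calls from 49.6% to 36.93%, and called E2F3 lower (-0.68). E2F8 ranged from -0.65 at a pseudocount of 8 to -3.14 at 0.1, E2F2 from -1.48 (pseudocount of 8) to -2.69 (batch A alone) and E2F7 from -1.48 to -2.62 (same settings). E2F8 was not past the limit in batch B alone, and was untested without either B3 library unless the minimum mean was dropped, which was run without both. With no fold limit 6301 genes were called, RB1 and E2F3 among them, with 2 lower among E2F and DP genes and 5 lower and 2 higher corepressors. Without the batch term 2143 genes were called, with 0 lower E2F and DP genes, 0 higher corepressors and 5 lower genes among kinases and regulators. Batch A alone gave 2 lower E2F and DP genes, 0 higher corepressors, and 3 lower and 1 higher among kinases and regulators, and called RB1 lower. Batch B alone gave 2 higher corepressors and called E2F3 lower (-0.74). A mean of at least 20 left 1 higher gene among kinases and regulators. The cause of these moves was not tested.

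LIN37 turned to -0.91 in batch A alone and -0.61 without both B3 libraries (with or without the minimum mean), and ran from -0.34 to 0.75 with 1 library left out. E2F5 turned to -0.048 in batch B alone. With 1 library left out, the difference of change between batches (B minus A) ran from -0.037 to 0.79 for E2F7 and from -0.015 to 1.22 for E2F8, corepressors called higher from 1 to 2, and E2F3 from -0.74 to -0.44. The RBL2 minus RB1 shift, 0.65, had an exact permutation adjusted p of 0.24 over all 12 samples without regard to batch, and its shift of 0.43 in batch B alone had 0.286. With 1 library left out it ran from 0.54 to 0.77 and 7 of 12 values were not past the limit.

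Same-named samples of both groups did not deviate together (correlations from -0.05 to 0.02), so the names are not taken as pairs. A replicate block called the same 6 members and 3211 genes in all, and left the shift of RBL2 minus RB1 at 0.65 with an adjusted p of 0.125 (exact permutation). Depth limits E2F2, E2F7, E2F8 and MYBL2 in senescent libraries of batch B and LIN37 in both groups.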
